A study of Bos taurus with 21 samples.

Results

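The genes described here are 7 HOX genes and 2 genes of limb position, *HOXA4*, *HOXA5*, *HOXA9*, *HOXA10*, *HOXB4*, *HOXC4*, *HOXC5*, *PITX1* and *TBX4*, measured in foetal muscle of cattle. They were taken by symbol, and every probe whose RefSeq transcript carries one of these symbols was used. This gave 13 probes for the 9 genes, out of 26628 named probes for 12538 genes on the array. *HOXB4* had 3 probes, *HOXA9* and *HOXC4* had 2 each, and the other genes had 1 each. Each gene is described by its brightest probe, and its further probes are given beside it. The genes were chosen by symbol with values of these same arrays in view, and the record of the choice does not say which measured values these were. The spread and co-variation of the genes are therefore given as descriptions with no test, and the tests of stage and breed are no independent evidence for having singled out these genes.

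The study compared 2 French beef breeds, Blonde d'Aquitaine (BA) and Charolais (CH), at 110, 180, 210 and 260 days post conception (dpc). BA is more muscular, partly through a mutation of *MSTN*, the gene of the muscle growth inhibitor myostatin, but the BA foetuses were not genotyped for it. At these 4 stages BA was represented by 3, 2, 3 and 2 foetuses and CH by 2, 3, 3 and 3, with 1 single-colour array each. The foetuses came from cows inseminated with semen of their own breed, were sired by 2 bulls in each breed, and included 3 males among 10 BA and 5 males among 11 CH foetuses, with no male in BA at 180 and 260 dpc or in CH at 110 dpc.

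The sample labels name the muscle *Longissimus thoracis*, a muscle of the back, whereas the study's methods name *Semitendinosus*, a hamstring muscle of the hindlimb. Which of these muscles the arrays represent was not tested. Genes of muscle fibres were bright on the arrays. All 6 fibre markers (*ACTA1*, *CKM*, *MYL1*, *DES*, *TNNT3* and *MYOG*) were well above background on all 21 arrays.

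HOX genes encode homeodomain transcription factors and lie in 4 clusters, HOXA to HOXD. Within a cluster, genes of low number are used towards the head end of the trunk and genes of high number towards the tail end and the tips of the limbs, and adult connective tissue and muscle keep part of this positional pattern. *PITX1* and *TBX4* encode transcription factors of the embryonic hindlimb, and *TBX5* is the counterpart of *TBX4* in the forelimb. *HOXA4*, *HOXB4* and *HOXC4* are paralogs of each other, as are *HOXA5* and *HOXC5*, whereas *HOXA9* and *HOXA10* belong to the part of the cluster used further towards the tail end.

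Intensities are given as log2 of the authors' processed signal, scaled by the 75th percentile of each array and shifted by a constant that sets the middle probe of a typical array to 0. The 75th percentile lay between 525 and 1174 intensity units, and 29017 to 34502 probes per array were well above background, which is the call of the authors' software. No probe was saturated. Since each value is the level of RNA in a piece of tissue, fewer cells of a type and less RNA per cell cannot be told apart. A level is not compared between different probes, because each probe binds with its own strength.

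*HOXA10* and *HOXA9* differed more between foetuses of the same breed and stage than any other gene of the group. The *HOXA10* probe was well above background on 17 of 21 arrays, and the other 8 genes were measured above background on every array. In BA, *HOXA10* had normalized log2 intensities of 1.18, 0.71 and 0.87 at 110 dpc, 0.36 and −0.01 at 180 dpc, −1.37, −3.61 and 0.70 at 210 dpc, and 3.76 and −2.64 at 260 dpc. In CH it had 3.38 and 0.56 at 110 dpc, 0.98, 3.25 and −0.53 at 180 dpc, 3.78, 3.51 and −2.71 at 210 dpc, and 4.26, 1.59 and −4.27 at 260 dpc. The lowest values at 210 and 260 dpc, 1 array in each of these 4 groups, were not well above background. The foetuses of 1 group could thus lie near both ends of the whole range. The breeds overlapped at each stage, and the stages overlapped when the breeds were pooled. Within BA, not all stages did.

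The brightest *HOXA9* probe followed the same arrays. Its normalized log2 intensities in BA were 4.49, 4.50 and 3.56 at 110 dpc, 4.12 and 3.46 at 180 dpc, 2.75, 2.23 and 3.84 at 210 dpc, and 5.47 and 1.92 at 260 dpc. In CH they were 4.63 and 3.74 at 110 dpc, 4.01, 5.06 and 3.02 at 180 dpc, 5.44, 4.98 and 1.90 at 210 dpc, and 5.46, 3.99 and 1.79 at 260 dpc. The values of the highest and the lowest foetuses were nearly the same in both breeds at 260 dpc. The second *HOXA9* probe gave the same picture, with a correlation of 1.00 (Pearson's r, n = 21 arrays) between the deviations of both probes from their group means.

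**Figure D1:**
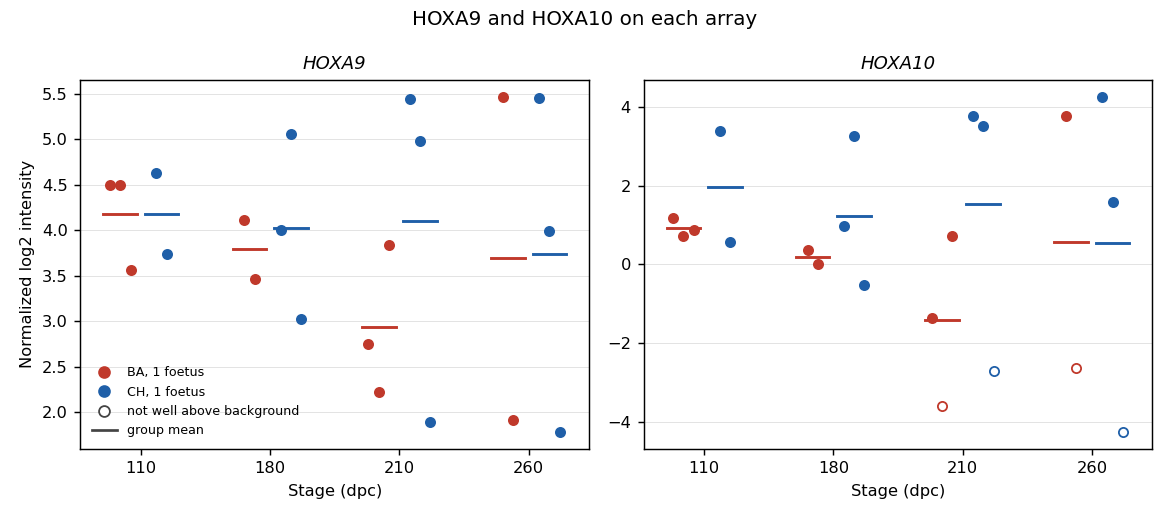
Normalized log2 intensity of HOXA9 (left) and HOXA10 (right) on each array by stage, with BA in red, CH in blue, the group means as lines and open points for arrays on which the probe was not well above background. Each panel has its own scale. At 260 dpc HOXA10 ran from −4.27 to 4.26 among 3 CH foetuses, and at 110 dpc from 0.71 to 1.18 among 3 BA foetuses.

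The difference between the highest and the lowest foetus of a group was smaller at 110 dpc than at 260 dpc in both breeds. For *HOXA9* the highest foetus had 1.92 times the level of the lowest in BA and 1.85 times in CH at 110 dpc, 1.57 and 4.10 times at 180 dpc, 3.07 and 11.7 times at 210 dpc, and 11.7 and 12.8 times at 260 dpc. For *HOXA10* the ratio was 1.39 in BA and 7.05 in CH at 110 dpc, and 1.29 and 13.7 at 180 dpc. Where the lowest foetus was not well above background, the highest was at least 13.7-fold higher in BA and at least 56.9-fold higher in CH at 210 dpc, and at least 65.3-fold and at least 101-fold higher at 260 dpc, counted against the weakest signal well above background on the array concerned or the probe's own signal there, whichever was higher. With 2 or 3 foetuses in a group, these ratios rest on single animals, and the change of the spread with stage was not tested.

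Pooled over the 8 groups, the standard deviation within a group was 2.86 for *HOXA10* and 1.39 for *HOXA9* on the log2 scale, with 13 residual degrees of freedom. The 26225 probes that were well above background on all arrays had a median of 0.21. The value of *HOXA9* was higher than that of 99.87% of them, and its second probe had 1.47. *HOXA10*, which is not among these probes because of its 4 dim arrays, ranked 24th of 43497 probes with no missing value. Differences between foetuses of the same group made up 83.85% of the whole variance of *HOXA10* and 88.1% of that of *HOXA9*. Leaving out each array in turn kept the standard deviation of *HOXA10* between 2.44 and 2.97. With normexp background correction it was 1.65, and in the authors' value table, which has no value for the dim arrays, it was 1.46.

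Among the other genes, *PITX1* had a pooled standard deviation of 0.58, *HOXC5* 0.51, *HOXC4* 0.50 and *TBX4* 0.47. These 4 values lay between the 93.83 and 96.98 percentiles of the 26225 probes. *HOXB4* with 0.32 lay at the 80.61 percentile, and *HOXA4* with 0.23 and *HOXA5* with 0.21 were close to the median probe. Over the 9 genes the median was 0.50. With normexp correction it was 0.29, and the values of *PITX1*, *HOXC4* and *HOXC5* fell to 0.29, 0.24 and 0.32. On the scan day with 4 arrays, *PITX1* lay above its group mean on every array, by 0.08 to 0.83, and with slide as well as group in the model its standard deviation was 0.43. Deviations of *PITX1* from the group means had a correlation of 0.42 with the array's 75th percentile. With the array's number of probes above background it was 0.41. The part of slide, scan day and array level in the spread of *PITX1* was not tested.

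**Figure D2:**
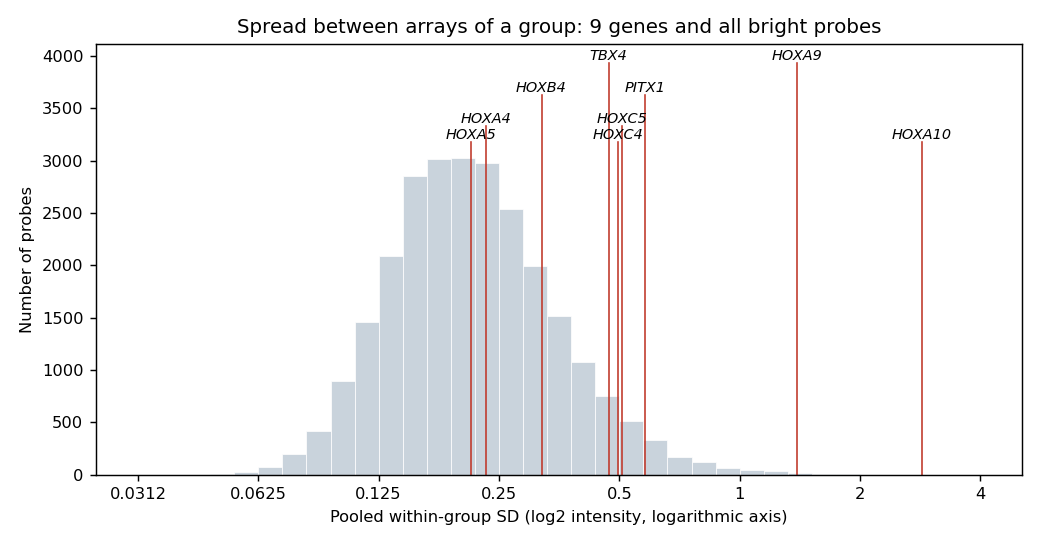
Number of probes by pooled within-group standard deviation of log2 intensity, on a logarithmic axis, for the 26225 probes well above background on all arrays (grey bars). The red lines mark the 9 genes, and HOXA9 at 1.39 and HOXA10 at 2.86 lie beyond almost all bars.

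The arrays with extreme *HOXA10* did not share 1 slide, scan day, sex or breed. The 4 arrays of a single slide held values from −4.27 to 3.76, and the 3 arrays of another slide from −2.71 to 4.26. On the 3 scan days, with 5, 12 and 4 arrays, the values ran from −2.71 to 4.26, from −4.27 to 3.76 and from −3.61 to 3.78. Female foetuses ran from −4.27 to 3.78 and males from −2.71 to 4.26. The offspring of the BA bulls ran from −3.61 to 1.18 (5 foetuses, median 0.36) and from −2.64 to 3.76 (5 foetuses, median 0.70). Those of the CH bulls ran from −4.27 to 4.26 (7 foetuses, median 3.38) and from −0.53 to 1.59 (4 foetuses, median 0.77). All CH values of 3.25 and above, and the dim CH arrays, came from the bull with 7 foetuses. The part of the bull in the spread was not tested. Deviations of *HOXA10* from the group means had a correlation of 0.20 with the 75th percentile of the array and of 0.30 with its number of probes above background (n = 21 arrays).

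The developmental course was examined by the difference between 260 and 110 dpc, averaged over the breeds. *HOXA5* and *HOXC5* were lower at 260 dpc, and none of the 9 genes was higher (limma, Benjamini-Hochberg adjusted p under 0.05 over all probes). These are 2 of 9 genes, or fewer than the share among all probes tested, of which 43.9% passed, 22.7% as lower and 21.2% as higher. The median difference of the 9 genes was −0.11 and that of all probes 0.09.

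*HOXA5*, known for its part in patterning the neck, thorax and lung, had 2.11, 2.15 and 1.82 in BA and 2.05 and 2.03 in CH at 110 dpc. Late in gestation, at 260 dpc, it had 1.63 and 1.28 in BA and 1.86, 1.72 and 1.41 in CH. Within each breed all foetuses of 260 dpc lay below all of 110 dpc, although the ranges overlapped when the breeds were pooled. The difference was −0.47 ± 0.14 (SE, log2, adjusted p = 0.0124), with −0.57 in BA (adjusted p = 0.0382) and −0.38 in CH (adjusted p = 0.175). The difference of both breeds' changes, −0.19 ± 0.28, did not pass (adjusted p = 0.999). Over the 31 alternatives the averaged change lay between −0.86 and −0.35 and its adjusted p between 0.00488 and 0.0735. The call ended with median scaling (−0.37, adjusted p = 0.0608) and without BA replicate 2 at 260 dpc (−0.38, adjusted p = 0.0735).

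*HOXC5*, its paralog in the HOXC cluster, had −0.04, 0.40 and 0.45 in BA and −0.70 and −0.29 in CH at 110 dpc. At 260 dpc it had −1.73 and −0.24 in BA and −1.53, −1.77 and −1.06 in CH. Again the stages did not overlap within a breed but did when the breeds were pooled. Such a fall without overlap in each breed was seen in 2 of 9 genes and in 19.4% of all probes. The difference was −1.11 ± 0.31 (SE, log2, adjusted p = 0.00825), with −1.25 in BA (adjusted p = 0.0374) and −0.96 in CH (adjusted p = 0.112), and the difference of both changes was −0.30 ± 0.62 (adjusted p = 0.999). Over the 30 alternatives it lay between −1.50 and −0.44, with adjusted p between 0.000358 and 0.166. The call ended with normexp correction (−0.44, adjusted p = 0.0525), among female foetuses alone (−0.98, adjusted p = 0.166) and without BA replicate 1 at 260 dpc (−0.73, adjusted p = 0.0673).

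In BA alone 33.3% of all probes passed between 110 and 260 dpc, 17.5% as lower. In CH alone 32.7% passed and none of the 9 genes did, with *HOXC5* alone at an unadjusted p under 0.05 (limma), and 0.00687% passed for the difference of both breeds' changes. Leaving out single arrays moved the change in BA between −0.75 and −0.39 for *HOXA5* and between −2.0 and −0.51 for *HOXC5*, with the smallest *HOXC5* value without BA replicate 1 at 260 dpc. In BA the adjusted p ran from 0.0111 to 0.328 for *HOXA5* and from 0.00545 to 0.498 for *HOXC5* over the alternatives, and both calls ended with normexp correction and with median scaling. With quantile normalization, the filter on dim probes, sex as covariate, slide as random block or a replicate block, 1 of these 2 genes was called in BA. Of the BA foetuses 2 of 3 were male at 110 dpc and none at 260 dpc, so that stage and sex are partly mixed there. Both calls ended among female foetuses alone too, but with 1 BA foetus left at 110 dpc that alternative decides neither. The genes of fibroblasts and muscle progenitors moved from 110 to 260 dpc as well. The marker calls below are for the change averaged over the breeds, in which 22.7% of all probes were lower and 21.2% higher. Of the 9 fibroblast markers 5 were lower at 260 dpc and none higher, against 2 lower in BA alone and 3 in CH alone. The sum of their levels was taken with each scaled to its mean over the arrays. At the first stage it was 8.55 to 14.0 in BA and 10.8 to 10.9 in CH. At the last it was 5.90 to 7.54 in BA and 5.09 to 7.69 in CH. All 9 were well above background on every array. Of the 3 muscle progenitor markers with a probe, *MYF5* and *CDH15* were lower and *MYOD1* was not called, with sums of 3.14 to 9.66 at the first stage and 1.14 to 2.22 at the last. Of the 3 tendon markers with a probe, *TNMD* (−4.12) and *MKX* (−2.12) were lower and *THBS4* had −0.27 (adjusted p = 0.528). Of the 3 cartilage and bone markers with a probe, *COL2A1* (−3.77) was lower, and *ACAN* and *IBSP*, above background on 5 and 1 arrays, did not pass. Of the 6 fibre markers 5 were higher and *MYOG* was lower. The part of these markers in the changes of *HOXA5* and *HOXC5* was not tested.

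*HOXA4* was higher at 180 than at 110 dpc, by 0.58 ± 0.15 (SE, log2, adjusted p = 0.0179). It was the single gene of 9 to pass in that interval, in which 13.2% of all probes did, 6.53% as higher. At 110 dpc it had 3.12, 3.18 and 3.30 in BA and 2.92 and 3.11 in CH, and at 180 dpc 3.48 and 4.13 in BA and 3.45, 3.56 and 3.72 in CH, so that all 5 foetuses of 180 dpc lay above all 5 of 110 dpc, as for 5.76% of all probes. Over 31 alternatives the adjusted p lay between 0.00647 and 0.181. The call ended with the authors' value table (adjusted p = 0.180), among female foetuses alone (0.181), without BA replicate 2 at 180 dpc (0.106) and without CH replicate 1 at 110 dpc (0.0828). From the first stage to the last it differed by 0.28 ± 0.15 (adjusted p = 0.143), and passed without BA replicate 1 at 260 dpc (0.43, adjusted p = 0.0409). These alternatives ranged from −0.11 to 0.43.

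From 180 to 210 dpc none of the 9 genes passed, and none had an unadjusted p under 0.05 by its brightest probe (limma), while the dimmer *HOXC4* probe had −0.53 ± 0.24 (adjusted p = 0.296), where 3.62% of all probes passed. From 210 to 260 dpc none passed either, against 24.0% of all probes, but by the brightest probes *HOXA5* and *HOXC5* had an unadjusted p under 0.05. Their differences were −0.37 ± 0.13 (adjusted p = 0.0602) and −0.77 ± 0.29 (adjusted p = 0.0732). *HOXA5* passed in this interval with 5 alternatives and without any 1 of 4 arrays, and *HOXC5* with 1 alternative, the authors' value table, and without either of 2 arrays. Over the alternatives the adjusted p ran from 0.0155 to 0.271 for *HOXA5* and from 0.0047 to 0.644 for *HOXC5*.

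**Figure D3:**
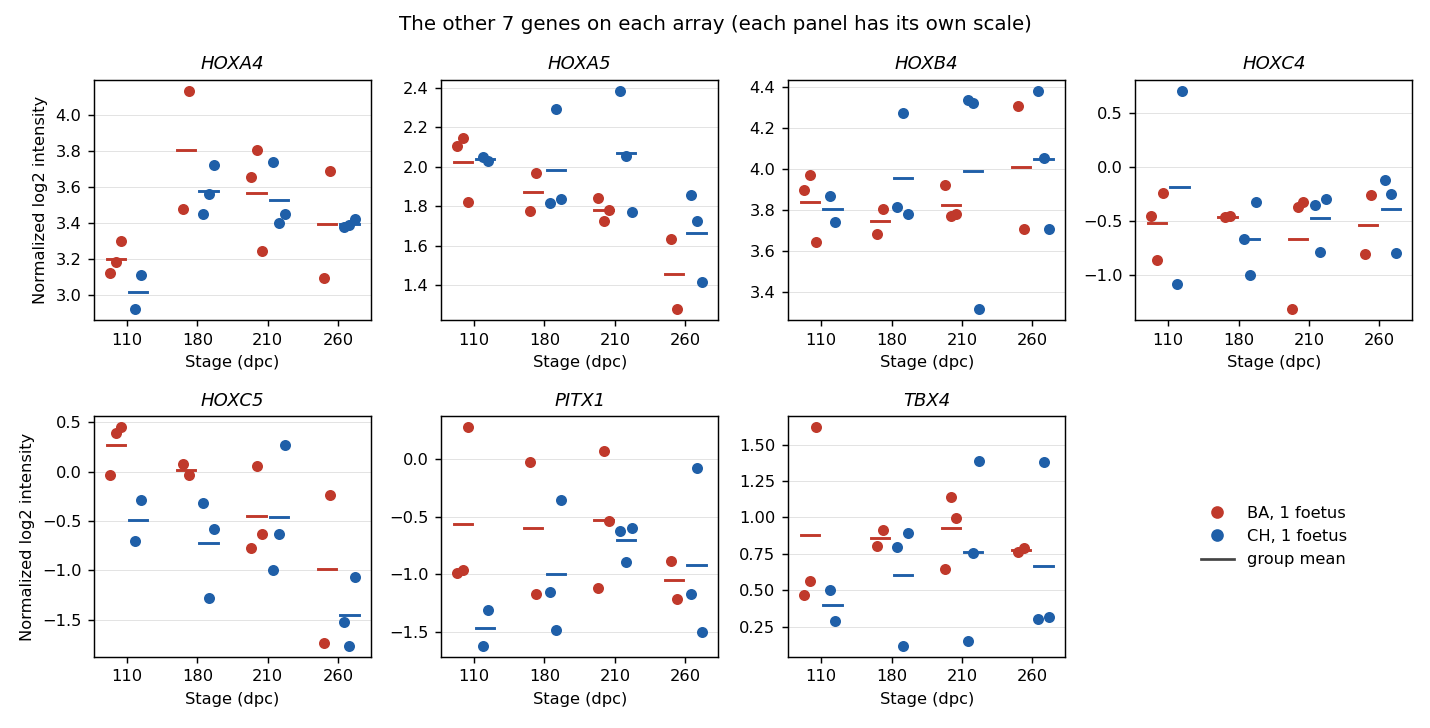
Normalized log2 intensity of the other 7 genes on each array by stage, with BA in red, CH in blue and the group means as lines, each panel on its own scale. By group means HOXA5 and HOXC5 are lowest at 260 dpc and HOXA4 at 110 dpc. For all 7 genes the foetuses of 110 and 260 dpc overlap when the breeds are pooled. For HOXA5 and HOXC5 they do not overlap within a breed.

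The other 6 genes did not pass between 110 and 260 dpc. For *HOXA10* and *HOXA9* the differences were −0.90 ± 1.71 and −0.46 ± 0.84 (SE, log2), with errors larger than the differences, so that a change of several fold would not have been detectable with this number of foetuses. *PITX1* differed by 0.03 ± 0.35, *TBX4* by 0.08 ± 0.29, *HOXB4* by 0.21 ± 0.20 and *HOXC4* by −0.11 ± 0.30. The adjusted p of these 6 genes lay between 0.432 and 0.957.

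Probes of 1 gene did not always give the same course. The dimmer *HOXC4* probe was well above background on all 5 arrays of 110 dpc but on 1 of the 5 arrays of 260 dpc, so that its fitted difference (−0.75, adjusted p = 0.0268) is taken against signals near background and is no measured size. The brighter probe was not called, and the deviations of both had a correlation of 0.19. The 3 *HOXB4* probes differed in sign, with 0.21, 0.25 and −0.31, none of which passed, and correlations between 0.32 and 0.67. The *HOXB4* and *HOXC4* values are uncertain to this extent.

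*TBX4* was well above background on all arrays and had 0.47, 0.56 and 1.62 in BA at 110 dpc, 0.80 and 0.92 at 180 dpc, 0.64, 1.14 and 1.00 at 210 dpc and 0.77 and 0.79 at 260 dpc. In CH it had 0.50 and 0.29, then 0.80, 0.12 and 0.89, then 0.15, 0.76 and 1.39, and 0.30, 1.38 and 0.31. *PITX1* ranged over all arrays from −1.62 to 0.27, with a median of −0.97. Both genes overlapped between 110 and 260 dpc in each breed, and the highest *TBX4* values, 1.62, 1.39 and 1.38, came from 3 different groups.

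No difference between the breeds passed for any of the 9 genes. On average over the stages the count was 0 (limma, 0.0733% of all probes did). By the brightest probes, *HOXC5* alone had an unadjusted p under 0.05, with 0.50 ± 0.21 more in BA (adjusted p = 0.502), and so had the dimmer *HOXC4* probe, with 0.45 ± 0.18 (adjusted p = 0.453). *HOXA10* differed by −1.26 ± 1.18 and *PITX1* by 0.34 ± 0.24 (SE, log2, BA minus CH). At the single stages no brightest probe had an unadjusted p under 0.05, though the dimmer *HOXC4* probe did at 180 dpc (0.88 ± 0.36, adjusted p = 0.806), where 0.0206%, 0.0275%, 0.00229% and 0.0137% of all probes passed at 110, 180, 210 and 260 dpc. The foetuses of both breeds did not overlap for *HOXC5* at 110 and 180 dpc and for *HOXA4* and *PITX1* at 110 dpc, with BA above CH each time. These are 3 of 9 genes at 110 dpc and 1 of 9 at 180 dpc, where the groups did not overlap for 25.0% and 22.5% of all probes, so neither share stands out from the background. No gene was without overlap at 210 or 260 dpc, against 9.10% and 15.9% of all probes. The *HOXC5* differences at these stages were 0.76 ± 0.44 (adjusted p = 0.615) and 0.74 ± 0.44 (adjusted p = 0.925).

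Co-variation between foetuses of a group was described by correlating the deviations of the 21 arrays from their group means. These arrays share slides and scaling, and the 2 foetuses of a small group deviate by the same amount in opposite directions, so that 13 values are free. *HOXA9* and *HOXA10* had a Pearson's r of 0.97 (Spearman's rho 0.95), and 0.96 without the 2 arrays farthest from the median. It was 0.94 in BA and 0.99 in CH. Over the 17 arrays on which *HOXA10* was well above background, r was 0.91. In the authors' value table it was 0.66, and under the other alternatives it stayed between 0.96 and 0.98.

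*HOXA5*, of the same cluster, and *HOXB4*, of another, tended to be high and low in the same foetuses as *HOXA9*. The correlation of *HOXA9* was 0.90 with *HOXB4* and 0.82 with *HOXA5*, and that of *HOXA5* with *HOXB4* was 0.89. In CH these 3 values were 0.96, 0.88 and 0.88 and in BA 0.80, 0.70 and 0.95. The sizes differed widely, because the standard deviation of *HOXA9* was 1.39 and those of *HOXB4* and *HOXA5* were 0.32 and 0.21. With the mean of its 3 probes, *HOXB4* had r of 0.83 with *HOXA9* and 0.76 with *HOXA5*. *HOXA10* had r of 0.77 with *HOXA5* and 0.86 with *HOXB4*, but 0.48 and 0.64 over the 17 arrays on which it was well above background, and 0.48 and 0.51 in the authors' value table. *HOXA4*, which lies next to *HOXA5* in the same cluster, had r of −0.01 with *HOXA5* and −0.44 with *HOXA9*. The breeds differed, with −0.27 and −0.83 in BA and 0.32 and 0.01 in CH. Over both breeds the values turned to 0.65 and 0.08 in the authors' value table.

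*HOXC5* ran the other way. Its r was −0.83 with *HOXA9*, −0.83 with *HOXA10*, −0.82 with *HOXA5* and −0.81 with *HOXB4*. With *HOXA9* it was −0.87 in BA and −0.82 in CH. Over the 17 arrays with measurable *HOXA10* the value for *HOXA10* was −0.46. In the authors' value table, which is not scaled between arrays, the values were −0.54 with *HOXA9*, −0.08 with *HOXA10*, −0.11 with *HOXA5* and −0.22 with *HOXB4*. *HOXA5*, *HOXB4* and *HOXC5* had no dim array, so that their opposite course was seen with scaling between arrays and hardly without it. In BA at 260 dpc the foetus with *HOXA10* of 3.76 had *HOXC5* of −1.73, and the foetus with −2.64 had −0.24. *HOXC4*, a neighbour of *HOXC5*, had r between −0.28 and −0.19 with *HOXA5*, *HOXA9*, *HOXA10* and *HOXB4*. These values ran from −0.70 to −0.30 in BA and from −0.15 to −0.02 in CH.

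*PITX1* and *TBX4* tended to move together, but not in every foetus. In CH replicate 1 at 210 dpc *PITX1* deviated by 0.08 and *TBX4* by −0.62 from its group mean. The r of *PITX1* with *TBX4* was 0.69 (rho 0.64), and 0.49 without the 2 arrays farthest from the median. It was 0.40 among female foetuses alone. *HOXA10* had r of −0.03 with *PITX1* and −0.27 with *TBX4*. Over the 17 arrays on which *HOXA10* was well above background these were −0.43 and −0.42. They were 0.21 and 0.17 within the scan day with 12 arrays, so that their sign was not stable. *TBX4* had −0.61 with *HOXA5*, −0.57 with *HOXB4* and −0.41 with *HOXA9*. In the authors' value table *TBX4* had −0.02 with *HOXA5* and −0.08 with *HOXB4*. *PITX1* had 0.49 with *HOXC4*, and 0.60 without the 2 arrays farthest from the median. Within the scan day with 12 arrays, r was 0.97 for *HOXA9* with *HOXA10*, −0.85 for *HOXA10* with *HOXC5* and 0.86 for *PITX1* with *TBX4*, and *TBX4* had −0.23 with *HOXA5* and −0.18 with *HOXB4*. The other days had too few arrays. In all, 7 of the 36 pairs had r above 0.5 and 6 had r below −0.5, with a median of −0.07.

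**Figure D4:**
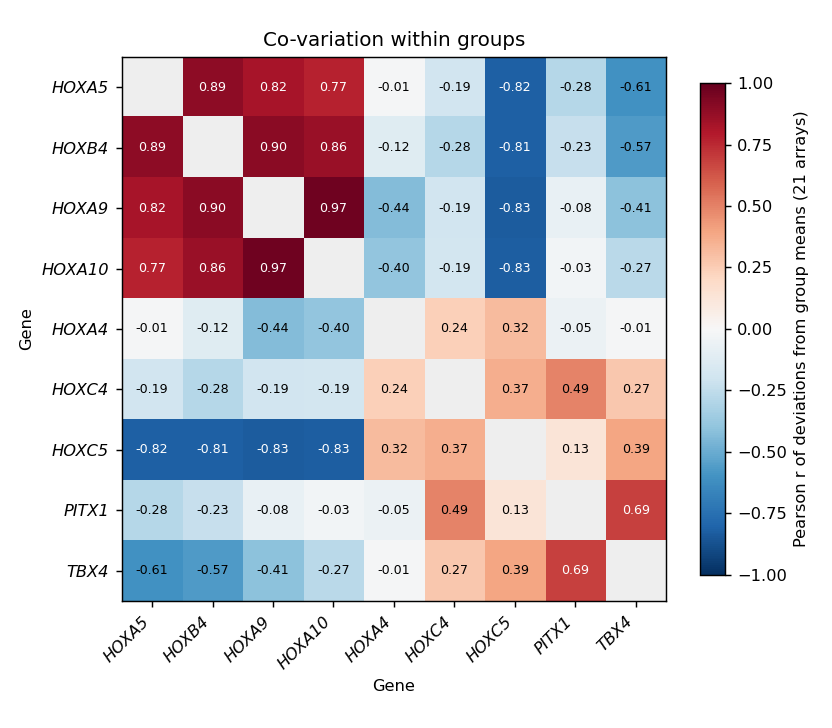
Pearson's r between the deviations of 2 genes from their group means over 21 arrays, from −1 (blue) to 1 (red). HOXA5, HOXB4, HOXA9 and HOXA10 form a block of values from 0.77 to 0.97, of which HOXA10 with HOXA5 and with HOXB4 fell to 0.48 and 0.64 without the arrays dim for HOXA10. All 4 are negative with HOXC5, and PITX1 with TBX4 has 0.69.

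**Figure D5:**
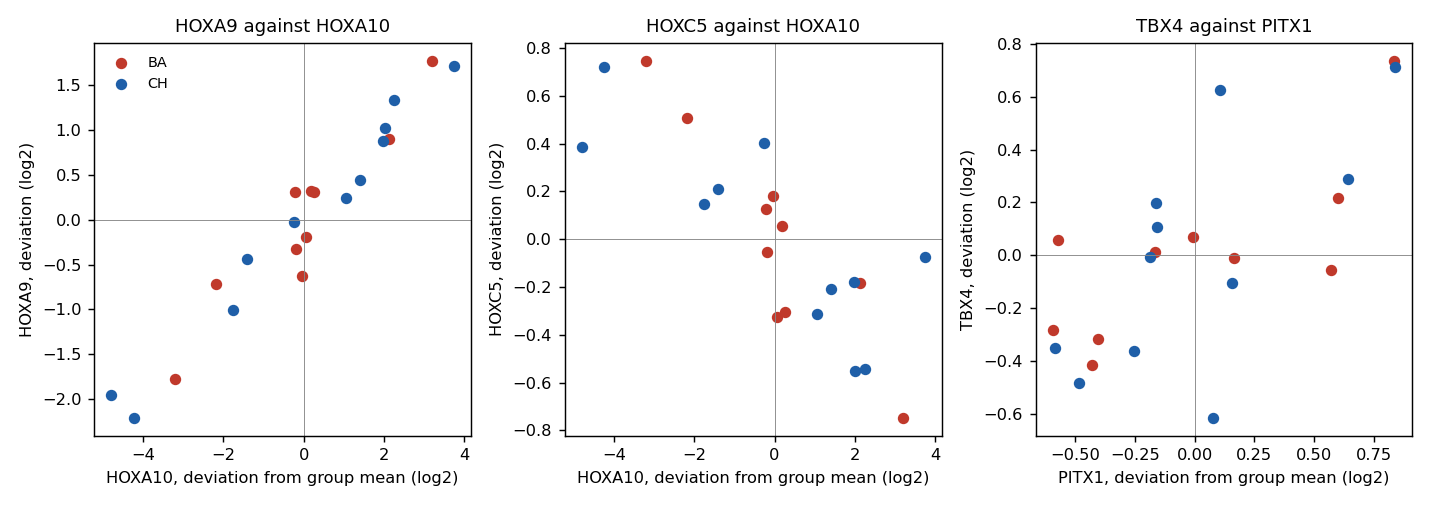
Deviation of each array from its group mean (log2) for HOXA9 against HOXA10, HOXC5 against HOXA10 and TBX4 against PITX1, with BA in red and CH in blue. The points of the first panel rise along 1 line with r of 0.97, those of the second fall with r of −0.83, and those of the third scatter more widely with r of 0.69.

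Of the 32 other HOX genes, 14 had a probe, and 6 of these were well above background on all arrays. These were *HOXA2*, *HOXA3*, *HOXB2*, *HOXB3*, *HOXC13* and *HOXD4*. By their brightest probes, *HOXD4*, of the HOXD cluster, moved with *HOXA10* (r = 0.68), and *HOXB2* against it (r = −0.72). *HOXB2* had r of −0.90 with *HOXA5* and 0.87 with *HOXC5*. *HOXA2* and *HOXA3* had r of 0.40 and 0.02 with *HOXA10*. Of the genes of high number, *HOXC11*, *HOXC12*, *HOXD11* and *HOXD12* were not well above background on any array, *HOXB9* was on 11 and *HOXB7* on 8, and the brightest *HOXD10* probe on 2, BA replicate 1 at 180 dpc (−1.54) and CH replicate 1 at 260 dpc (−0.03). *HOXC13* had 1 probe above background on all arrays and 1 on none, and is uncertain. The remaining genes of numbers 6 to 13 in HOXA, HOXC and HOXD were not analysed here.

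*TBX5*, the forelimb counterpart of *TBX4*, was well above background on 4 arrays. These were BA replicate 3 at 110 dpc (−2.28), BA replicate 2 at 260 dpc (0.48), CH replicate 1 at 180 dpc (−0.70) and CH replicate 1 at 210 dpc (−2.84). *ISL1*, which acts upstream of the hindlimb programme, was so on 3 arrays, BA replicates 2 and 3 at 110 dpc (−1.09 and −2.72) and CH replicate 2 at 210 dpc (0.30). Both genes were dim on most arrays, and *TBX4* and *PITX1* were above background on all.

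Over the course from 110 to 260 dpc, 43.9% of all probes passed, and 5 of the 14 other HOX genes did by their brightest probes. *HOXB2* (0.98), *HOXA3* (0.46) and *HOXC13* (0.63) were higher, and *HOXD4* (−0.54) and *HOXA2* (−0.63) were lower. The *HOXA2* call was narrow (limma, adjusted p = 0.0471), and its second probe, above background on 1 array, went the other way (1.31). The second probes above background on all arrays gave 0.65 for *HOXA3* and −0.46 for *HOXD4*, which passed too, and 0.09 for *HOXB2*, which did not (adjusted p = 0.704), so that *HOXB2* is uncertain. Of the 8 cofactors of HOX proteins with a probe 3 passed. *MEIS2* (−1.34) and *PBX3* (−1.26, above background on 12 arrays) were lower and *PKNOX2*, above background on 3 arrays, was higher. Of 27 other genes of limb and axial position 3 were higher, led by *PRRX1* (0.60) and *LBX1* (0.88), and 6 were lower, led by *EMX2* (−1.73) and *MEOX1* (−0.89). Of the 9 chromatin regulators with a probe, 4 were higher, led by *CBX7* (1.59, above background on 18 arrays) and *EED* (0.32). The 3 lower ones were led by *EZH2* (−1.33) and *RNF2* (−1.04).

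The named genes whose deviations were most like those of each gene were sought among 9211 other genes that were well above background on all arrays, with the 9 genes themselves left out. Among these other genes *PRCP*, the gene of prolylcarboxypeptidase, was the most alike to *HOXA10* (r = 0.93), *HOXA9* (r = 0.91) and *HOXB4* (r = 0.88) and the most opposite to *HOXC5* (r = −0.88), although its own standard deviation was 0.20. *RFX5* (r = 0.87) and *ILDR2* (r = 0.87) came next for *HOXA10*, and *NKX2-1* (r = 0.85) and *TRIM11* (r = 0.84) for *HOXA9*. The other genes most like *HOXC5* were *ANXA13* (r = 0.87), *HOXB2* and *CDH3* (r = 0.85), and those most like *HOXA5* were *NECAB3* (r = 0.88), *PRCP* (r = 0.86) and *REEP2* (r = 0.85). *HOXA4* was most like *HOXA3*, its neighbour (r = 0.78), *MSS51* (r = 0.78) and *INO80C* (r = 0.75). For *HOXB4*, *RHOD* and *GGT5* followed *PRCP* with r of 0.87 and 0.86, and for *HOXC4* the first were *TSSK3* (r = 0.86), *DNAJC5G* (r = 0.82) and *PTPRCAP* (r = 0.82).

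For *PITX1* the most alike were *PCIF1* (r = 0.95), *BTN1A1* (r = 0.93) and *MZB1* (r = 0.92), and for *TBX4* they were *HPX*, *TMCC2* and *DGKB* (r = 0.96, 0.95 and 0.95). These are the highest of many correlations and say nothing of a shared function.

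Markers of cell types were set beside these deviations in the same way. The mean deviation of 3 leukocyte markers (*PTPRC*, *CD68* and *CD14*, all above background on every array) had r of 0.85 with *TBX4* and 0.58 with *PITX1*, and that of 3 epidermis markers had 0.71 with *PITX1*. The summed leukocyte level ran from 2.45 to 3.75 over the groups and the summed epidermis level from 1.61 to 4.10, with *KRT14* and *KRT15* above background on all arrays and *KRT5* on 4. *HOXA10* had r of −0.07 with the fibre list, −0.21 with the fibroblast list and −0.51 with the 3 progenitor markers, with which *HOXC5* had 0.64. *HOXC5* had 0.54 with the leukocyte and 0.59 with the epidermis list, and *HOXA10* had −0.33 and −0.44. With the Schwann cell and endothelium lists *HOXA10* had 0.36 and 0.335. Deviations were averaged without scaling, so that a marker of wide spread weighs most in its list. *MYOD1* had an SE of 0.69 for the change from 110 to 260 dpc, against 0.14 for *MYF5* and 0.19 for *CDH15*. The dim *KRT5* had 0.50, against 0.24 for *KRT14* and 0.19 for *KRT15*. The part of any of these cells in the spread was not tested.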

How the data were processed

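RNA of 21 foetuses was measured on single-colour Agilent arrays with 45220 spots, on 6 slides scanned on 3 days. Spot intensity was read out by the authors in Feature Extraction 10.7, which detrended the signal and subtracted no background, per the file headers. The authors' deposited value table holds log2 of these intensities, unscaled between arrays (column medians 8.04 to 8.82) and empty where a probe was not well above background. Of its values, 99.985% were within 0.01 of log2 of the processed intensity. Control spots and 258 outlier spot values were left out, spots of a probe were averaged to 43653 probes, and log2 intensity was reduced by its array's 75th percentile, with 2.69 added. Probes were named by RefSeq accession through cattle RefSeq (ARS-UCD2.0). Because the probes were designed on an older assembly, no position is given. Probe sequences were not analysed here.

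Means of the 8 groups of breed and stage were estimated by limma 3.58.1 (R 4.3.3) over all probes and arrays, with 13 residual and 2.12 prior degrees of freedom, and a probe was called at a Benjamini-Hochberg adjusted p under 0.05. The fit assumes 1 spread for all groups. Where an array is left out of a group of 2, the lone array is assumed to vary like the other groups. Replicates were separate foetuses. On simulated data with 43497 probes, the comparison of 260 with 110 dpc recovered 65 of 100 probes shifted by 1 on the log2 scale and 90 of 100 shifted by 2, with 10 false calls. For BA against CH averaged over stages it was 77 and 96, with 16 false calls. Few probes were shifted in the simulation, whereas 43.9% were called between 110 and 260 dpc in the data. The recovered shares need not hold for the data, nor for genes as widely spread as *HOXA9* and *HOXA10*.

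Deviations from group means were computed in Python 3.11.15 with pandas 2.3.3, numpy 2.4.6 and scipy 1.17.1, and plotted with matplotlib 3.10.9. The genes and lists were chosen with earlier results of these data known. Named beside the 9 genes are HOXA, HOXC and HOXD genes of numbers 6 to 13, *TBX5*, *ISL1*, the 2 called genes of lowest p in each direction of every list, and for every gene the 3 most alike. Other names were chosen after their values were seen. Alternatives were normexp correction (offset 50, on median spot signals), median scaling, quantile normalization, the authors' value table, a filter on dim probes, the mean of all probes of a gene, female foetuses alone, sex, slide or replicate number in the model, scan day, and each array left out. The restriction to arrays with measurable *HOXA10* was an addition made once the values were known. Precision is limited by 2 or 3 arrays per group.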

Additional observations from a re-analysis of the deposited data

How the results depend on the processing

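Main counts are in brackets. Between 110 and 260 dpc, averaged over the breeds (2), 1 gene was called with normexp correction, with median scaling, with the filter on dim probes, which left 6 of the 9 genes, and among female foetuses alone. From 110 to 180 dpc (1) it was 0 with the authors' value table and among females. From 210 to 260 dpc (0) it was 2 with the authors' value table and 1 with the filter, the mean of all probes, females alone or a replicate block. In BA from 110 to 260 dpc (2) it was 0 with normexp, median scaling or females alone and 1 with quantile normalization, the filter, sex as covariate, slide as random block or replicate block. In CH (0) it was 1 with the authors' value table. Without single arrays these 5 counts ran from 1 to 2, 0 to 1, 0 to 1, 0 to 2 and 0 to 0, and the counts from 180 to 210 dpc, of the breeds and of the difference between the breeds' changes were 0 under every alternative run. Of other HOX genes (5), 10 were called with normexp and 3 each with median scaling, the authors' value table and the filter. Of cofactors (3) it was 0 with the filter, of limb genes (9) 14 with normexp and 4 with the authors' value table, and of chromatin regulators (7) 4 with that table. These lists were compared between 260 and 110 dpc, averaged over the breeds. Of all probes there, 19167 of 43651 were called in the main fit, 23348 of 43653 with normexp and 19462 of 43653 with median scaling. It was 13730 of 31348 in the authors' value table, 12906 of 20132 with the filter and 15270 of 43652 among females. Such totals are not given for the other stage comparisons. The table and the filter hold fewer of these genes. For the other changes the cause was not tested. The median standard deviation of the 9 genes (0.50) was 0.29 with normexp and 0.43 within slides, and ran from 0.46 to 0.52 without single arrays. The pairs with r beyond 0.5 in size (13) ran from 13 to 16 without single arrays and from 12 to 19 otherwise.

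Over all probes, the median change from 110 to 260 dpc was 0.09 in the main scaling, −0.37 in the authors' unscaled table, 0.22 with normexp and 0.19 with median scaling. *HOXA5* and *HOXC5* stayed lower in all of them. Between the breeds, averaged over stages, 32 of all probes were called, against 53 with normexp, 51 with quantile normalization, 72 with the filter, 93 among females, 18 in the authors' value table and 9 with the mean of all probes. Replicate numbers did not pair the foetuses. Arrays of the same number had a median correlation of 0.0019 over 66 pairs and those of other numbers −0.0062 over 126 pairs. None of the 9 genes reversed a call under any alternative run. The single genes of the other lists and the markers were not followed through the alternatives. The dim *HOXA10* arrays give bounds only.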
